A study of Rattus norvegicus with 9 samples.

Results

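The 10 genes described here are the interleukin-1 (IL-1) and tumour necrosis factor (TNF) pathway genes Il1a, Il1b, Il1rn, Il1r1, Il1rap, Il18, Il18bp, Tnf, Tnfrsf1a and Tnfrsf12a, taken by gene symbol from the 20194 genes of the deposited gene table. They were measured by RNA-Seq in dorsal root ganglia (DRG) of male Sprague Dawley rats aged 8 to 10 weeks, with 3 libraries in each of 3 groups. The sham group had the operation without the nerve lesion. The SNI group had spared nerve injury, in which the tibial and common peroneal branches of the sciatic nerve are cut and the sural branch is left, a standard model of neuropathic pain. The SNI + G15 group (SNI_G15 in the plots) had the same injury and then received G15, an antagonist of the G protein-coupled oestrogen receptor GPER, through an intrathecal catheter implanted on day 5, with an injection period of 24 h given in the labels. Per the labels, the drug was dissolved in 2% DMSO and the sham and SNI libraries were the G15 controls. Whether those control rats received the vehicle is not stated in the sources used here, so G15 and the injection cannot be told apart if they did not. The methods describe tissue from 3 rats per group and the animal list gives 6, and nothing says which library holds which rats, so the p-values measure the spread between these libraries. The ipsilateral lumbar 4 to 6 ganglia were collected, and the labels' extraction text names another cell type than DRG. Neuron markers were present in every library, with a summed level of 9636 to 10337 FPKM (fragments per length of transcript, scaled to the depth of the library) over 6 genes. Each library held between 18484600 and 18756700 estimated reads.

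IL-1α and IL-1β are 2 agonists of one receptor, Il1r1, which signals after the accessory protein Il1rap joins it. Il1rn encodes the IL-1 receptor antagonist, which occupies Il1r1 without recruiting the accessory protein, and Il18bp encodes a secreted protein that binds IL-18 and keeps it from its receptor. TNF acts through Tnfrsf1a, while Tnfrsf12a is the receptor of the related ligand TWEAK. In injured ganglia these cytokines come from immune cells, glia and neurons, and they are known to sensitise nociceptive neurons.

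The sequences before the start sites are shown for Il1a, Il1b, Il1rn and Il1r1, which make up the IL-1 signal, its antagonist and its receptor, and for Tnfrsf12a and Il18bp, the members called between SNI + G15 and SNI. They come from RefSeq for the rat build GRCr8, where all 10 members matched, with 11 start sites because Il1rap has 2. Motifs were searched on both strands in the 250 bases before and 50 bases after each start. They were the NF-kB site (by its consensus), the AP-1 site TGANTCA, the interferon-type element GAAANNGAAA and the STAT-type element TTCNNNGAA. Capitals mark a match, and no match overlapped another. Il1a and Il1b lie close together on chromosome 3, in the same orientation.
Il1a upstream, chr3:136990018-136990267, minus strand: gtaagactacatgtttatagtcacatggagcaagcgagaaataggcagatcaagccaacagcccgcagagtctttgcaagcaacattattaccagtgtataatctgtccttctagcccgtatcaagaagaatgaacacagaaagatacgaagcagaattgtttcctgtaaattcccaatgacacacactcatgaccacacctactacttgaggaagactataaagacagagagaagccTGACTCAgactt
Il1b upstream, chr3:137036582-137036831, minus strand: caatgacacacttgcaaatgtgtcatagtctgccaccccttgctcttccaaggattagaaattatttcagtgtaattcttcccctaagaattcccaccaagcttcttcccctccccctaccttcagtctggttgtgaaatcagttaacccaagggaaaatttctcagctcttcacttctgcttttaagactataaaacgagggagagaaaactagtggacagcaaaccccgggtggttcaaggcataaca
Il1rn upstream, chr3:27520072-27520321, plus strand: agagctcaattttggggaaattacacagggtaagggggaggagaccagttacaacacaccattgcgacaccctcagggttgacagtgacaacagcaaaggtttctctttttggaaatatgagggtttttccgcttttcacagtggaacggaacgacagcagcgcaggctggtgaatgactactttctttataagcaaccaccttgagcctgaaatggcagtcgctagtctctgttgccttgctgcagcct
Il1r1 upstream, chr9:50034133-50034382, plus strand: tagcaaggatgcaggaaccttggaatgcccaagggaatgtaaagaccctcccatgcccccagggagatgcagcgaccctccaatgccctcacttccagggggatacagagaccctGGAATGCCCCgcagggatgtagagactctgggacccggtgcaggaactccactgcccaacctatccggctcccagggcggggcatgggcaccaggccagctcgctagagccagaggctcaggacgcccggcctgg
Tnfrsf12a upstream, chr10:13213649-13213898, minus strand: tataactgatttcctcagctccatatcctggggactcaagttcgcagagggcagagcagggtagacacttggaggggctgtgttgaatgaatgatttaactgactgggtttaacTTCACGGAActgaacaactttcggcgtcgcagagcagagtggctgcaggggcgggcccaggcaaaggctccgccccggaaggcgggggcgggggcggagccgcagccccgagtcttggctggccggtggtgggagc
Il18bp upstream, chr1:165786956-165787205, minus strand: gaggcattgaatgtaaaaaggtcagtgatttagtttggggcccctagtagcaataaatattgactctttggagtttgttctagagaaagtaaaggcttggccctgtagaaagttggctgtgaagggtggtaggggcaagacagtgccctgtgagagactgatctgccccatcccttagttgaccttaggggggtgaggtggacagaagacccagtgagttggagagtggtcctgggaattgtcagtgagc
Il18bp after the start, chr1:165786906-165786935, minus strand: gggattcctagttcagagaGAAAGTGAAAg
The AP-1 letters stood 12 to 6 bases before the start of Il1a and were also found 6 to 12 bases after that of Il18. The NF-kB letters were found before the starts of Il1r1 and Il1rap, the STAT-type element before Tnfrsf12a, and the interferon-type element in the first transcribed bases of Il18bp and near both starts of Il1rap. No motif was matched in these windows of Il1b, Il1rn, Tnf and Tnfrsf1a. Among all 33469 starts, 7.51% of windows held the NF-kB letters, 7.33% the AP-1 letters, 3.92% the interferon-type and 8.87% the STAT-type letters. These starts are 1 of several for some genes. The start of Il1a lies 219 bases, that of Il1rn 10486 bases, that of Il1r1 33825 bases and that of Il18bp 1035 bases inside the outer 5′ end of the gene.

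The first question was how the injury alone changed these genes. In the SNI group 8 of the 8 members past the expression filter (1 or more FPKM in any library) were higher than in sham, and their libraries did not overlap between the groups. Of all 14305 genes tested, 23.3% were called higher and 27.2% were higher with no overlap, and 45.7% were called in either direction. The median log2 fold change of these 8 members was 1.17, against 0.0010 over all genes tested. Il1rn reached 1 FPKM in no sham library and passed the filter only through the injured groups, so its place in this count and median was partly set by the filter. Il1a and Tnf were below the filter and are given from a second fit without it, over every gene with a read, in which 34% of genes were called and 17.4% called higher.

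Among the ligands, Il1b stood at 0.54, 1.11 and 0.78 FPKM in sham and at 1.82, 1.94 and 2.28 FPKM in SNI. The highest sham library was below the lowest SNI library, and the rise was 2.42-fold on normalised counts (log2 1.27 ± 0.28 SE, adjusted p = 0.0034, n = 3 per group). It rested on few reads, 13 to 27 per sham library and 44 to 55 per SNI library. Il18, a cytokine of the same family that is cut to its active form by caspase-1, stood at 2.06, 2.67 and 2.67 FPKM in sham and at 5.66, 6.20 and 6.78 FPKM in SNI. It rose 2.46-fold (log2 1.30 ± 0.18 SE, adjusted p = 0.000186).

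Il1a, which unlike Il1b is active as a precursor, was at the limit of detection in sham. Its reads numbered 0, 4 and 0 in the sham libraries and 19, 18 and 14 in the SNI libraries. The ratio of the summed reads, scaled to library size, was 12.4, with an exact 95% counting interval of 4.56 to 47.3 that covers counting error only. In the fit without the filter the log2 fold change was 3.52 ± 0.71 SE (adjusted p = 0.00256). Leaving out 1 library moved this value to between 2.98 and 7.08. The largest value came without sham replicate 2, which held all sham reads of the gene.

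Tnf was low in every library. It had 16, 14 and 10 reads in sham and 13, 12 and 14 in SNI, so the groups overlapped. The log2 difference was -0.07, with a 95% interval of -0.76 to 0.61 and an adjusted p of 0.886. As a ratio to sham, this interval ran from 0.592 to 1.53.

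The receptor antagonist Il1rn rose the most of the members past the filter. It stood at 0.79, 0.53 and 0.88 FPKM in sham and at 3.54, 4.22 and 4.38 FPKM in SNI, a 5.44-fold rise (log2 2.44 ± 0.18 SE, adjusted p = 1.96e-06). Its lowest SNI library held over 4 times the level of its highest sham library. Il18bp rose less. Its sham libraries stood at 6.59, 5.88 and 6.44 FPKM and its SNI libraries at 11.29, 9.95 and 11.69 FPKM, without overlap. On normalised counts this was 1.36-fold (log2 0.44 ± 0.071 SE, adjusted p = 0.000541), and with FPKM in place of counts the log2 difference reached up to 0.79.

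Every receptor gene among the members rose with injury. Il1r1, the signalling receptor of IL-1, went from 2.51, 2.04 and 2.20 FPKM to 7.31, 7.50 and 7.79 FPKM, a 3.23-fold rise (log2 1.69 ± 0.069 SE, adjusted p = 1.91e-08). Its accessory chain Il1rap went from 3.55, 3.72 and 3.78 FPKM to 5.63, 5.69 and 5.68 FPKM, a 1.47-fold rise (log2 0.56 ± 0.076 SE, adjusted p = 0.000153). The chain that binds the cytokine thus rose by more than the chain that completes the complex, and the 95% intervals of the 2 changes, 1.54 to 1.84 and 0.39 to 0.73 on the log2 scale, did not overlap.

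Tnfrsf1a was the most abundant member per length in every library. It stood at 25.15, 25.68 and 25.87 FPKM in sham and at 47.45, 43.22 and 46.07 FPKM in SNI, a 1.73-fold rise (log2 0.79 ± 0.049 SE, adjusted p = 4.31e-07). Tnfrsf12a stood at 4.59, 5.51 and 6.55 FPKM in sham and at 12.14, 11.43 and 11.95 FPKM in SNI, a 2.09-fold rise (log2 1.06 ± 0.12 SE, adjusted p = 4.17e-05). Both TNF-type receptors rose while the Tnf transcript itself gave no call.

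In the SNI group the order of levels per length, in FPKM, ran from Tnfrsf1a at 45.6 ± 2.16 (SD, n = 3) through Tnfrsf12a at 11.8 ± 0.368, Il18bp at 11.0 ± 0.911, Il1r1 at 7.53 ± 0.242, Il18 at 6.21 ± 0.560, Il1rap at 5.67 ± 0.0321, Il1rn at 4.05 ± 0.446 and Il1b at 2.01 ± 0.239 to Il1a at 0.46 ± 0.070 and Tnf at 0.417 ± 0.0351. The libraries overlapped between Tnfrsf12a and Il18bp, between Il18 and Il1rap, and between Il1a and Tnf. The receptors and the inhibitors thus stood above Il1a, Il1b and Tnf in level.

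**Figure D1:**
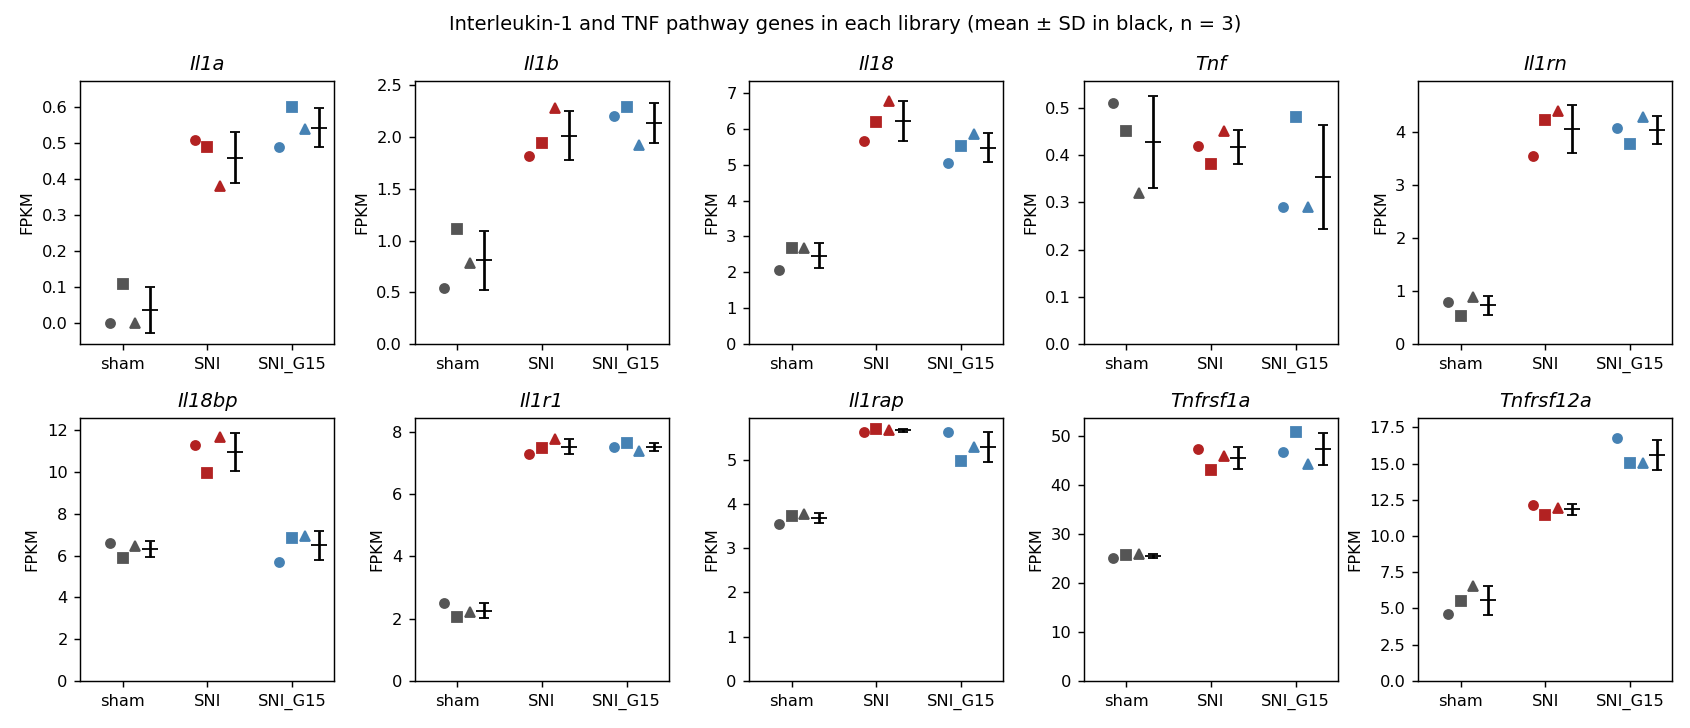
FPKM of each of the 10 genes (y axis, a scale of its own in each panel) in the sham, SNI and SNI + G15 libraries (x axis), with circles, squares and triangles for replicates 1, 2 and 3 and the mean ± SD in black. The SNI libraries lie above all sham libraries for every gene but Tnf, Il18bp overlaps with sham in SNI + G15, and Tnfrsf12a is highest there.

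The second question was whether G15 changed these genes in injured rats. Of the 8 members past the filter, Tnfrsf12a rose, Il18bp fell and 6 were not called, beside 7.98% of all genes called higher and 7.25% called lower (15.2% in all). The libraries of both called members did not overlap, as for 19.4% of all genes on the higher and 19.6% on the lower side. The median log2 difference of the 8 was 0.016, against 0.0063 over all genes.

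Tnfrsf12a stood at 16.75, 15.01 and 15.01 FPKM in SNI + G15, above all 3 SNI libraries at 12.14, 11.43 and 11.95 FPKM. It rose 1.33-fold over SNI (log2 0.41 ± 0.071 SE, adjusted p = 0.00625). The call held under all 15 alternative settings and left-out libraries, with adjusted p between 0.00563 and 0.0368.

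Il18bp stood at 5.71, 6.85 and 6.94 FPKM in SNI + G15, below all 3 SNI libraries and overlapping with sham. On normalised counts it fell by 0.39 on the log2 scale (SE 0.096, adjusted p = 0.0283), and the 95% interval of the ratio to SNI was 0.654 to 0.886. On log2 of FPKM plus 0.1 the difference was -0.75 (limma-trend, adjusted p = 0.0031). The call was lost without SNI replicate 1, 2 or 3 (adjusted p = 0.0645, 0.0843 and 0.108) and without SNI + G15 replicate 2 (adjusted p = 0.0619).

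The other members gave narrow or wide intervals according to their reads. For Il1r1 the ratio of SNI + G15 to SNI lay between 0.934 and 1.09 (95% interval), with libraries at 7.53, 7.64 and 7.38 FPKM. For Tnfrsf1a, at 46.91, 50.84 and 44.30 FPKM, the interval was 0.953 to 1.15, and for Il1rap, at 5.63, 4.96 and 5.28 FPKM, it was 0.838 to 1.07. These bounds limit how far the 3 receptor genes can have moved.

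Il1rn stood at 4.07, 3.76 and 4.27 FPKM in SNI + G15, with a ratio between 0.855 and 1.20. Il1b stood at 2.20, 2.29 and 1.92 FPKM, with a log2 difference of 0.098 (adjusted p = 0.731) and a ratio between 0.814 and 1.41. Il18 stood at 5.05, 5.53 and 5.84 FPKM, with a log2 difference of -0.17 (adjusted p = 0.445) and a ratio between 0.712 and 1.11. All 3 overlapped with their SNI libraries.

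The 2 members below the filter had the widest intervals. Il1a had 18, 22 and 20 reads in SNI + G15, a ratio to SNI between 0.806 and 1.75. Tnf had 9, 15 and 9 reads, a ratio between 0.519 and 1.41. Neither was called, beside 9.63% of genes called in this fit, and the few reads leave differences inside these bounds undetectable.

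Against sham, 7 of the 8 members remained higher in SNI + G15, where 21.4% of all genes were called higher and 43.2% in either direction. The same 7 did not overlap with sham, as for 28.1% of all genes on the higher side. This comparison shares its libraries with the 2 above and is not a further observation. Il1rn was 5.42-fold (adjusted p = 4.11e-06), Il1r1 3.21-fold (adjusted p = 2.08e-07), Tnfrsf12a 2.73-fold (adjusted p = 1.10e-05), Il1b 2.55-fold (adjusted p = 0.00248) and Il18 2.16-fold higher (adjusted p = 0.000922). Tnfrsf1a was 1.79-fold and Il1rap 1.37-fold higher. Il18bp was the exception among the 8, with a log2 difference of 0.022 (95% interval -0.21 to 0.26, adjusted p = 0.880). Of the members below the filter, Il1a was called higher (log2 3.74 ± 0.69 SE, adjusted p = 0.00209, beside 16.2% of genes called higher and 32.5% called at all without the filter) and Tnf was not (log2 -0.32, adjusted p = 0.521).

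**Figure D2:**
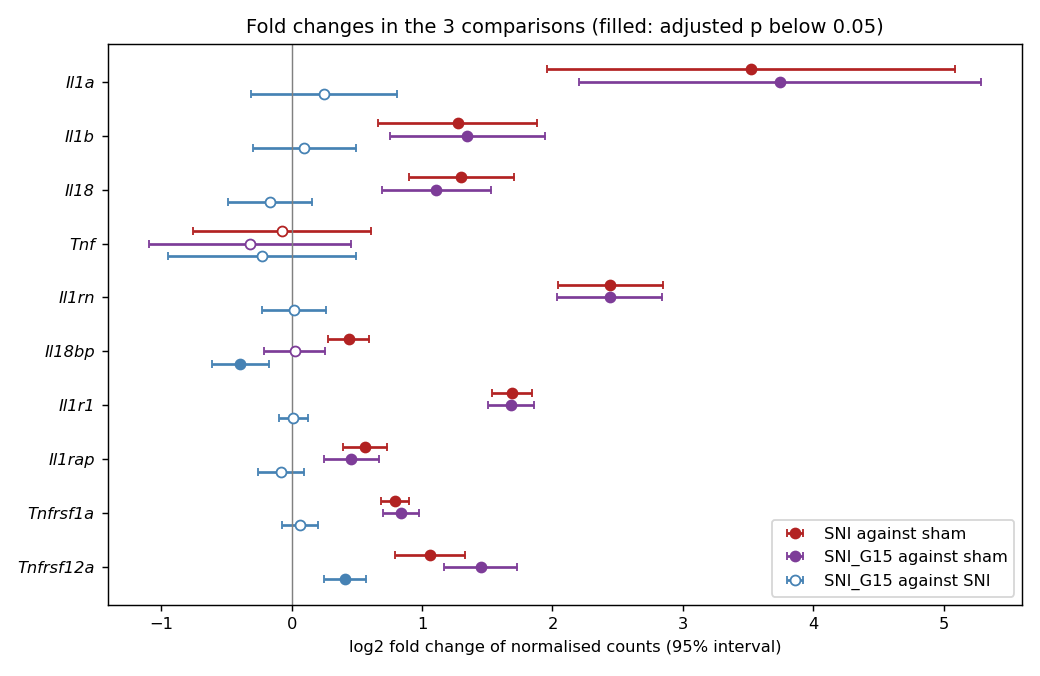
Log2 fold change of normalised counts (x axis) with 95% intervals for each of the 10 genes (y axis) in the 3 comparisons, filled where the adjusted p is below 0.05. The intervals of SNI_G15 against SNI include 0 for all genes but Tnfrsf12a (0.41) and Il18bp (-0.39).

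The antagonist and the agonist of the same receptor were also compared within each library. The ratio of Il1rn to Il1b FPKM was 1.46, 0.477 and 1.13 in sham, 1.95, 2.18 and 1.92 in SNI, and 1.85, 1.64 and 2.22 in SNI + G15. Both injured groups lay above all sham libraries and overlapped with each other. The difference from sham was 1.12 on the log2 scale for SNI and 1.03 for SNI + G15, each with p = 0.1 in a two-sided exact permutation test, the smallest p that 3 against 3 libraries allow. The size rested on sham replicate 2, which had the lowest ratio, and without it the differences were 0.65 and 0.56. Between SNI + G15 and SNI it was -0.089 (exact permutation p = 0.5).

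For IL-18 the ratio of inhibitor to cytokine moved the other way. The ratio of Il18bp to Il18 FPKM was 3.20, 2.20 and 2.41 in sham, 1.99, 1.60 and 1.72 in SNI, and 1.13, 1.24 and 1.19 in SNI + G15. The 3 groups did not overlap, so each group had a lower ratio than the one before it. The log2 differences were -0.54 for SNI against sham, -0.58 for SNI + G15 against SNI and -1.12 for SNI + G15 against sham, each with an exact permutation p of 0.1. These sizes depend on the scale, and on normalised counts in place of FPKM they were -0.87 for SNI against sham and -0.23 for SNI + G15 against SNI.

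**Figure D3:**
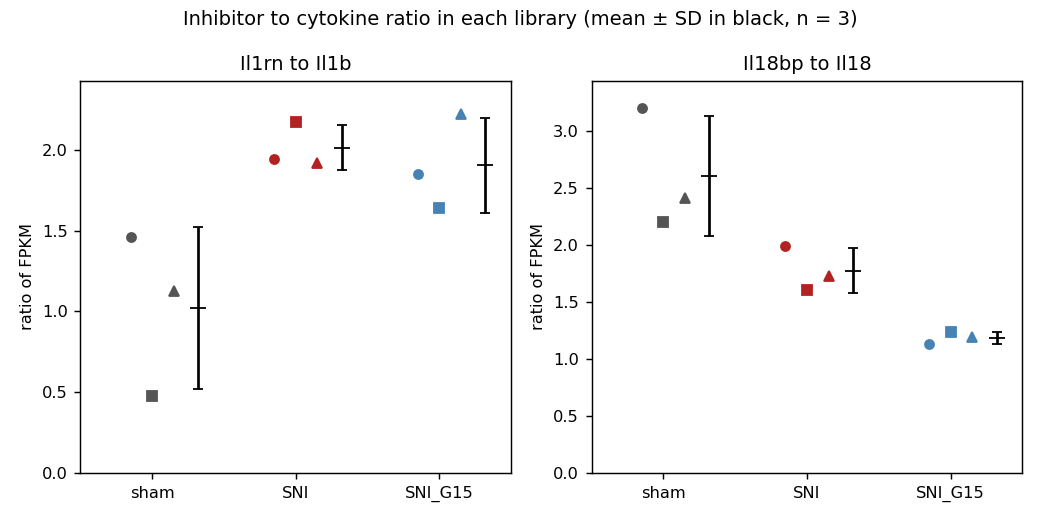
Ratio of FPKM of the inhibitor to the cytokine (y axis) in each library of the 3 groups (x axis), with the mean ± SD in black (n = 3). The ratio of Il1rn to Il1b has a mean of 1.02 in sham, 2.01 in SNI and 1.91 in SNI + G15, and that of Il18bp to Il18 has means of 2.60, 1.77 and 1.19.

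The 2 transcripts of Il18bp differed in level across the groups. The first, NM_053374.2 stood at 3.82, 3.33 and 4.01 FPKM in sham, at 9.01, 6.97 and 8.94 FPKM in SNI, and at 3.38, 4.19 and 3.79 FPKM in SNI + G15. The other, the predicted transcript XM_008759805.2, stood at 2.42 to 2.77, 2.27 to 2.98 and 2.33 to 3.15 FPKM in the same order, and overlapped between all groups. NM_053374.2 was called higher in SNI than in sham (log2 1.13 ± 0.20 SE, adjusted p = 0.0248), where 10.3% of the 25998 transcripts tested were called. Against SNI it stood at a log2 difference of -1.13 ± 0.20 SE in SNI + G15, with no overlap, but was not called (adjusted p = 0.106, beside 0.662% of transcripts called). Against sham its log2 difference in SNI + G15 was -0.0035 (adjusted p = 1, beside 10.4% of transcripts called).

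A test of transcript usage, which asks whether a transcript changes by another amount than its gene, was added after these values had been seen. It called neither Il18bp transcript in any comparison, beside 0.178% of transcripts after injury alone, 0.0445% between SNI + G15 and SNI, and 0.0334% between SNI + G15 and sham. The log2 ratio of NM_053374.2 to XM_008759805.2 averaged 0.53 ± 0.18 (SD, n = 3) in sham, 1.64 ± 0.39 in SNI and 0.49 ± 0.20 in SNI + G15. SNI differed from each of the others with an exact permutation p of 0.1, the smallest possible. In reads, NM_053374.2 held 56.9 to 68.4 estimated reads per sham library, 118.9 to 153.3 per SNI library and 57.3 to 70.9 per SNI + G15 library.

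**Figure D4:**
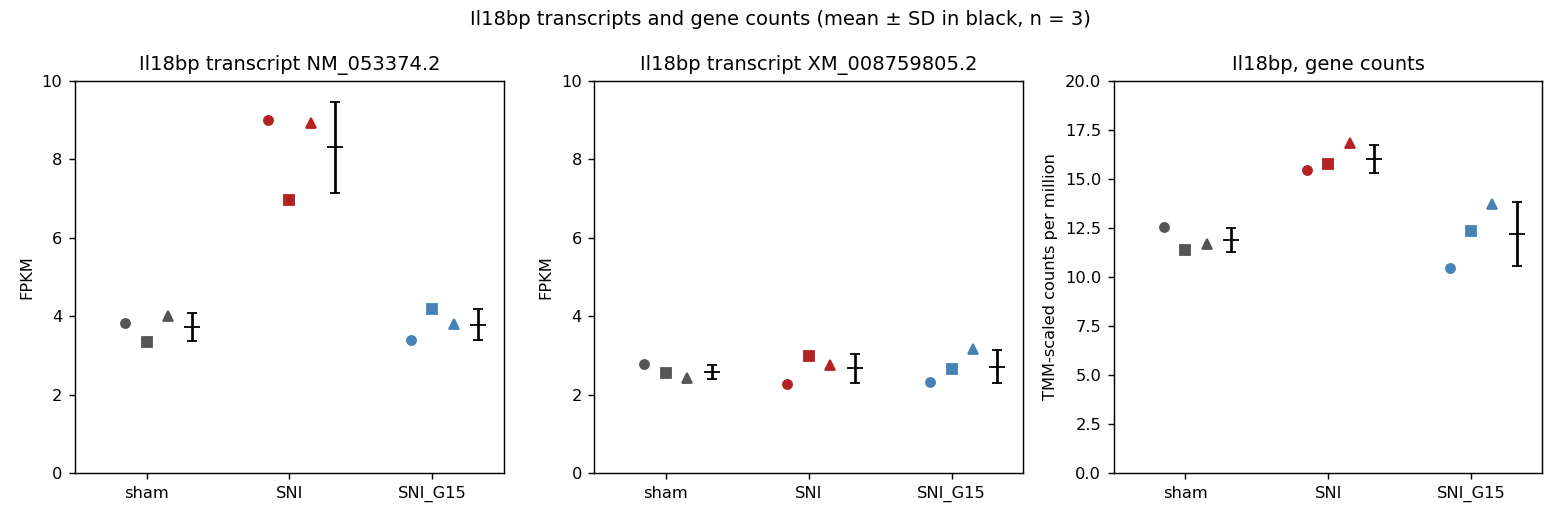
FPKM of the 2 Il18bp transcripts and normalised counts (CPM, scaled to depth) of the whole gene (y axes) in each library of the 3 groups (x axes), with the mean ± SD in black (n = 3). NM_053374.2 averages 8.31 FPKM in SNI against 3.72 in sham and 3.79 in SNI + G15, while XM_008759805.2 averages 2.58, 2.67 and 2.71 in sham, SNI and SNI + G15.

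For the other members with several transcripts, the assignment of reads limits what can be said. Tnfrsf1a was carried by NM_013091.1, which made up 74.8% to 78.4% of its FPKM in sham and 82.4% to 83.7% in SNI and rose with injury (log2 0.92 ± 0.051 SE, adjusted p = 0.000929), while XM_006237334.3 was not called (log2 0.39, adjusted p = 0.0883). Il1rap was carried by NM_012968.1, which held 83.2% to 93.1% of its FPKM over the 9 libraries. For Il1rn, the share of NM_022194.2 ranged from 0% to 100% between sham libraries. For Il1r1, the share of XM_006244748.3 ranged from 7.97% to 86.3% in sham, so for both genes the gene totals were used.

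Most macrophage and neutrophil markers rose in the same injury contrast. There, 23.3% of all genes were called higher and 45.7% in either direction. Of 10 macrophage markers, 9 were called higher in SNI than in sham, and their summed level ranged in sham from 179 to 197 FPKM, in SNI from 392 to 404 FPKM and in SNI + G15 from 414 to 452 FPKM. Of 8 neutrophil markers, 6 were called higher, with sums of 140 to 169, 221 to 258 and 234 to 278 FPKM in the same order. DESeq2 called 8 of the macrophage and 6 of the neutrophil markers. Of the other immune markers, 4 of 6 for T cells were called higher by edgeR, and DESeq2 called 2 of the 6. For mast cells 0 of 3 and for B cells 0 of 1 were called by edgeR or DESeq2 (1 and 0 at an unadjusted p below 0.05). None of these markers was at 0 in all sham or all SNI libraries. In bulk tissue fewer cells of a type and less RNA per cell cannot be told apart, and the part of these markers in the members' rise was not tested. Myelinating Schwann cell markers summed to 5211 to 5319 FPKM in sham and 2848 to 2902 FPKM in SNI, with 6 of 6 called lower.

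Beside the fall of Il18bp with G15, other markers moved too. Cd3e, a chain of the T cell receptor complex, stood at 0.54, 0.43 and 0.33 FPKM in sham, at 0.91, 1.06 and 1.44 in SNI, and at 0.27, 0.43 and 0.49 in SNI + G15. It held only 6 to 34 reads per library and passed the filter only through SNI libraries, where it was high. Of the 6 T cell markers tested, 2 were called higher and 2 lower in SNI + G15 than in SNI, and their median log2 difference was -0.83. The summed level of all 7 was 31.6 to 32.1 FPKM in SNI and 32.5 to 33.2 FPKM in SNI + G15. This sum is weighted to the most abundant markers and does not stand for each of them. Cd5 was listed at 0 in every SNI + G15 library. Erythroid markers had sums from 95.2 to 99.2 FPKM (sham), 318 to 327 FPKM (SNI) and 191 to 223 FPKM (SNI + G15), with 5 of 5 called lower after G15. Beside the rise of Tnfrsf12a, 6 of 6 fibroblast and 5 of 6 myelinating Schwann cell markers were called higher in SNI + G15 than in SNI. DESeq2 called 5 and 3 of them. Of all genes, 7.98% were called higher and 7.25% lower by edgeR in this comparison. Of 6 satellite glia markers, 2 were called higher and 1 lower, with sums of 454 to 464 FPKM in SNI and 504 to 534 FPKM in SNI + G15. Among macrophage markers 2 of 10 were called higher, and among neutrophil markers 1 of 8. Of 3 mast cell markers tested, 2 were called higher, and of 5 endothelial markers 1 was called higher and 1 lower. The endothelial sums were 46.6 to 48.2 FPKM in SNI and 59.2 to 66.8 FPKM in SNI + G15. The fibroblast markers had sums of 450 to 452 FPKM in SNI and 606 to 630 FPKM in SNI + G15. The part of these markers in the values of Il18bp and Tnfrsf12a was not tested.

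The genes most like each member over the 9 libraries were found by Pearson's r of log2 normalised counts. Since the 9 libraries fall into 3 groups, r mostly follows the group means, and it is given as a description. Il1rn was most like Prrg4 (r = 0.998), Ripk3 and Npy2r, and Il1r1 most like Rasd1 (r = 0.999), Stac2 and Npy2r. Il1b was most like Arhgap45 (r = 0.985), Tgif1 and P2rx2, and Il18 most like Dnajb5 (r = 0.989), Sdf2l1 and Orai1. Il1rap was most like Gprc5a (r = 0.996), Tiprl and Apbb1ip, Tnfrsf1a most like Grn (r = 0.996), Hs6st1 and Fxyd5, and Tnfrsf12a most like Ifi30 (r = 0.989), Cebpd and Ppp1r18. An r above 0.9 with Il1r1 was found for 10.1% of all genes. With Il18bp it was found for 0.0685%, and its nearest genes were the class I histocompatibility gene RT1-CE13 (r = 0.966), Cd3e (r = 0.936) and Sept8 (r = 0.932). Of these, Cd3e rested on few reads and passed the filter only through SNI libraries.

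The wider pathways were read from 9 lists that hold 124 further genes, of which 84 passed the filter. In SNI against sham, 49 of the 84 rose and 4 fell (58.3% and 4.76%), with a median log2 fold change of 0.39, beside 23.3% of all genes called higher and a median of 0.0010. The filter tilts this count, because 14 of the 84 reached 1 FPKM in no sham library and passed only through an injured group, as did 656 of the 14305 genes tested. Of the 49 that rose, 10 were among these 14. The 14 were Birc3, Cd40, Cxcl1, Il1r2, Il6, Lif, Mmp3, Nfkbiz, Nlrp1a, Rel, Tnfaip6, Tnfrsf10b, Tnfrsf14 and Tnfsf13b. With G15, 6 rose against SNI, 5 fell and 73 were not called (7.14% higher and 5.95% lower), near the 7.98% and 7.25% of all genes, and the median was 0.0041 against 0.0063. Lif and Cxcl1, among the 6, passed the filter only through SNI + G15. Against sham, 45 were higher and 7 lower in SNI + G15 (53.6% and 8.33%). Over all genes, 21.4% were called higher there and 43.2% in either direction. The filter tilts this count as well.

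Among further IL-1 family genes, the decoy receptor Il1r2, which binds IL-1 without signalling, stood at 0.04, 0.20 and 0.16 FPKM in sham and at 1.89, 1.77 and 2.13 FPKM in SNI. Its log2 fold change was 3.80 ± 0.38 SE (adjusted p = 1.78e-05), and the ratio of summed reads, 147 against 10, was 14.3 with an exact 95% counting interval of 7.56 to 30.5. It was not called between SNI + G15 and SNI. Il33, an alarmin of the family, stood at 28.0 ± 1.54 FPKM in sham and 42.2 ± 0.750 FPKM in SNI (SD, n = 3), a 1.47-fold rise (adjusted p = 4.26e-06). At 49.6 ± 1.81 FPKM it was 1.19-fold higher again in SNI + G15 (adjusted p = 0.00574). The inhibitory receptor Sigirr was called higher in SNI + G15 than in sham and in neither other comparison (log2 0.58, adjusted p = 0.022), and that call was lost in 5 of 15 alternatives, among them without sham replicate 1 or 3 and without SNI + G15 replicate 2 or 3 (adjusted p up to 0.0693).

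Of 7 inflammasome and processing genes beside Il18bp, 6 rose with injury and 1 was not called, where 23.3% of all genes were called higher. Nlrp1a, among the 6, reached 1 FPKM in no sham library and passed the filter only through injured groups. Pycard, the inflammasome adaptor, rose 1.98-fold (adjusted p = 0.000875), Casp1, which cuts the precursors of IL-1β and IL-18, 1.91-fold (adjusted p = 0.00155), the sensor Nlrp3 1.46-fold (adjusted p = 0.00481) and Casp4 1.45-fold (adjusted p = 0.00158). With G15, Casp4 fell by 0.32 on the log2 scale against SNI (adjusted p = 0.026). That call was lost in 4 of 15 alternatives, with DESeq2, without SNI replicate 1 or 3 and without SNI + G15 replicate 2 (adjusted p up to 0.104). Adam17, the protease that releases TNF from the membrane, was higher than in sham in both injured groups, with a log2 fold change of 0.51 in SNI (adjusted p = 2.28e-05) and 0.45 in SNI + G15 (adjusted p = 0.00081).

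Of 12 genes of IL-1 receptor signalling, 6 rose with injury and 6 were not called, beside 23.3% of all genes called higher. The kinase-like inhibitor Irak3 rose 2.03-fold (adjusted p = 4.79e-07), the adaptor Myd88 1.82-fold (adjusted p = 4.85e-06), and the kinases Irak4 1.59-fold (adjusted p = 9.67e-05) and Irak2 1.48-fold (adjusted p = 0.00658). With G15, 0 of the 12 were called by edgeR against SNI, and likewise 0 of 16 genes of TNF receptor signalling and 0 of 13 NF-kB subunits and inhibitors. At an unadjusted p below 0.05 the counts were 2, 3 and 3, and DESeq2 called 0 in each.

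Of 7 other TNF superfamily ligands tested, 1 rose (14.3%, beside 23.3% of all genes called higher), 1 fell and 5 were not called. Tnfsf13b (the B cell factor BAFF), which reached 1 FPKM in no sham library and passed the filter only through injured groups, rose 1.93-fold (adjusted p = 0.00396). Eda fell by 0.29 on the log2 scale (adjusted p = 0.0103, up to 0.0628 in the 3 of 15 alternatives that lost the call). Tnfsf13 was higher in SNI + G15 than in sham (log2 0.26, adjusted p = 0.049), a call lost in 9 of 15 alternatives and without any 1 of the 3 sham libraries or SNI + G15 replicate 1 or 2 (adjusted p up to 0.189). Of 12 other receptors, 3 rose with injury (25%, near the 23.3% of all genes called higher) and 2 fell. Among the 12, 3 reached 1 FPKM in no sham library, and 1 of these rose. Tnfrsf14, which stood at only 0.27, 0.34 and 0.30 FPKM in sham and passed the filter only through injured groups, rose 5.12-fold (adjusted p = 4.09e-06). The second TNF receptor Tnfrsf1b rose 1.71-fold (adjusted p = 0.00111) and Tnfrsf21 1.54-fold (adjusted p = 7.33e-07), while Relt fell by 0.33 on the log2 scale (adjusted p = 0.00432). Tnfrsf10b was 2.27-fold higher in SNI + G15 than in sham (adjusted p = 0.0102).

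With G15, Tnfrsf14 fell by 0.75 on the log2 scale against SNI (adjusted p = 0.022), Tnfrsf21 fell by 0.15 (adjusted p = 0.0394), and Ltbr, the lymphotoxin receptor, rose by 0.22 (adjusted p = 0.0332). The call of Tnfrsf14 was lost without SNI replicate 1 or 2 (adjusted p up to 0.0869). Those of Tnfrsf21 and Ltbr were lost in 7 and 5 of 15 alternatives, both without any 1 of the SNI libraries. The call of Tnfrsf21 was also lost without SNI + G15 replicate 1 (adjusted p up to 0.15) and that of Ltbr without SNI + G15 replicate 2 (up to 0.126).

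Downstream of the TNF receptors, 10 of 16 genes rose with injury, 1 fell and 5 were not called, beside 23.3% of all genes called higher. DESeq2 called 8 of the 16 in either direction. Birc3, among the 10, reached 1 FPKM in no sham library and passed the filter only through injured groups. Ripk3, a kinase of necroptosis, rose 3.63-fold (adjusted p = 6.55e-06), the ubiquitin ligase Birc3 2.14-fold (adjusted p = 0.00123) and Casp8 1.55-fold (adjusted p = 0.00479). The adaptor Fadd rose 1.73-fold (adjusted p = 0.028). Its call was lost in 6 of 15 alternatives, among them without sham replicate 2 or 3 or any 1 of the SNI libraries (adjusted p up to 0.119). Tnip2 was higher than in sham in SNI (log2 0.62, adjusted p = 0.000757) and in SNI + G15 (log2 0.69, adjusted p = 0.00075). Traf3 was lower than in sham in SNI (log2 -0.21, adjusted p = 0.00873) and in SNI + G15 (log2 -0.43, adjusted p = 0.000154). Of 13 NF-kB subunits and inhibitors, 9 rose and 4 were not called, beside the same 23.3% of all genes. DESeq2 called 6 of the 13. Nfkbiz and Rel reached 1 FPKM in no sham library and passed the filter only through injured groups, and Nfkbiz was among the 9. Bcl3 rose 2.68-fold (adjusted p = 1.14e-06), Nfkbiz 2.69-fold (adjusted p = 0.000131), Relb 1.38-fold (adjusted p = 0.00366) and the kinase Ikbkb 1.34-fold (adjusted p = 9.51e-05).

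Most of these genes were also higher in SNI + G15 than in sham, a comparison that shares its libraries with the others. Bcl3 was 3.09-fold, Ripk3 3.59-fold, Pycard 2.16-fold and Il33 1.72-fold higher (adjusted p = 1.83e-06, 1.22e-05, 0.000443 and 3.41e-06). Irak2 was 1.35-fold higher (adjusted p = 0.0267). Its call was lost in 5 of 15 alternatives, among them without sham replicate 2 or 3 or SNI + G15 replicate 1 or 2 (adjusted p up to 0.0997).

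**Figure D5:**
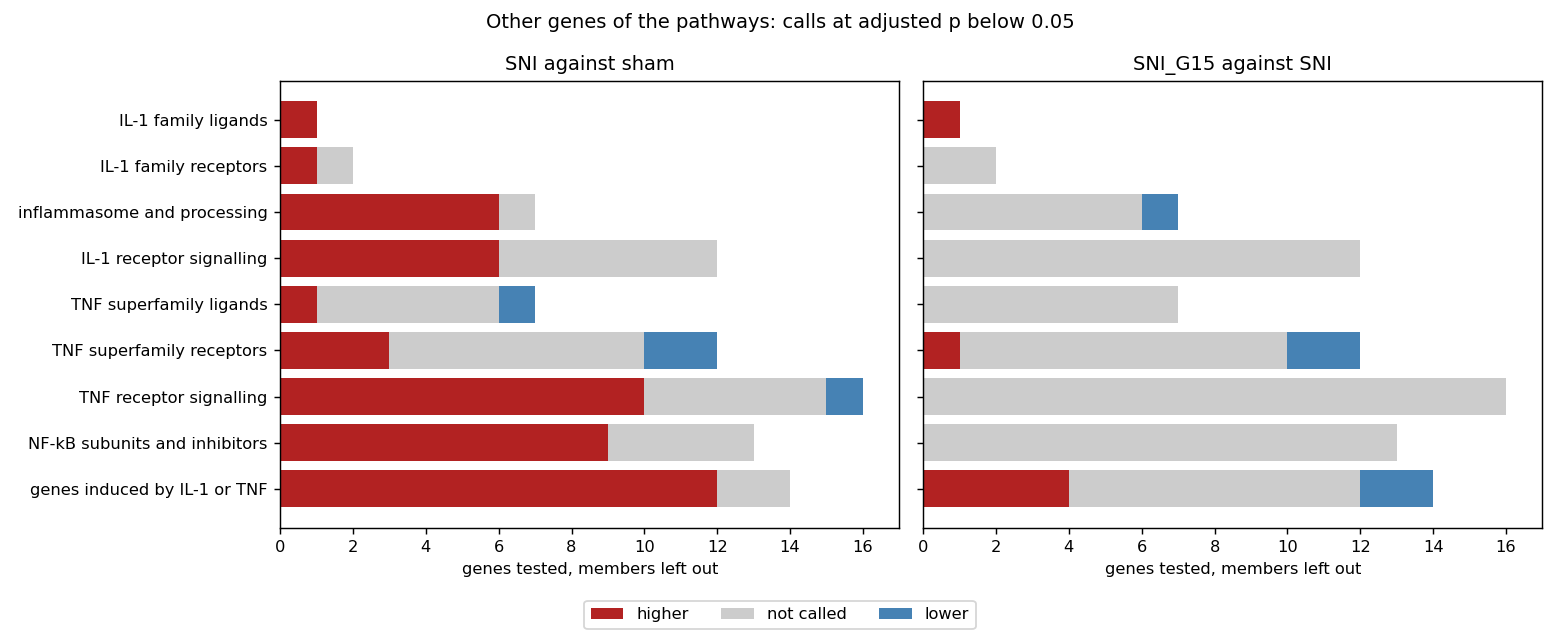
Number of genes tested in each of 9 pathway lists without the 10 members (x axis; one bar per list), divided into genes called higher, not called and called lower at an adjusted p below 0.05, for SNI against sham (left) and SNI_G15 against SNI (right). With injury 49 of 84 genes were higher, and with G15 73 of 84 were not called.

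Genes that IL-1 or TNF are known to induce were called higher with injury in 12 of 14 cases, beside 23.3% of all genes, and 2 were not called. DESeq2 called 10 of the 14. Of the 14, Il6, Mmp3, Tnfaip6, Cxcl1 and Lif reached 1 FPKM in no sham library, and 4 of these 5 were among the 12, so the count was partly set by the filter. Csf1, the macrophage growth factor, rose 4.42-fold (adjusted p = 1.50e-10) and the secreted hyaluronan-binding protein Tnfaip6 4.39-fold (adjusted p = 3.25e-05). Il6 had 1 read over the sham libraries and 162 over the SNI libraries, and Mmp3 had 2 and 113, ratios of 157.7 (exact 95% counting interval 27.9 to 6266) and 55.0 (14.9 to 459.6). With G15, 4 of the 14 rose and 2 fell against SNI, beside 7.98% and 7.25% of all genes. Lif and Cxcl1, both among those that rose, averaged only 0.30 and 0.61 FPKM in SNI. They passed the filter only through SNI + G15, where they were high, so this count too was partly set by the filter. Ptges, which makes prostaglandin E2, rose 1.68-fold (adjusted p = 0.00248), and Lif, a cytokine of the interleukin-6 family, had 29 reads in SNI and 122 in SNI + G15 (log2 2.07 ± 0.41 SE, adjusted p = 0.0116). Il6 fell by 0.83 on the log2 scale (adjusted p = 0.0221). Its call was lost in 4 of 15 alternatives, among them without SNI replicate 1 or 3 or SNI + G15 replicate 2 (adjusted p up to 0.0756). Cxcl1 was just called (log2 1.03, adjusted p = 0.0498), and its call was lost in 9 of 15 alternatives, among them without any 1 of the 6 libraries (adjusted p up to 0.182).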

How the data were processed

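The 9 RNA-Seq libraries (paired reads of 150 bp), 3 per group, were made from DRG. The authors deposited FPKM values and estimated counts per gene and transcript. Gene FPKM is the sum over transcripts, and the counts are unscaled, with fractions where reads were shared between transcripts. The aligner is not given in the sources used here. The submitters' processing notes name the mouse builds GRCm38 and mm10 for these rat libraries, so no coordinates were taken from the files. Columns named control were assigned to sham by elimination. Counts of Il1rn and Il1r1 were not whole in any of the 9 libraries.

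After rounding, counts were compared in edgeR 4.0.16 under R 4.3.3 (TMM, quasi-likelihood test, Benjamini-Hochberg adjustment, called at an adjusted p below 0.05) in the 14305 genes that reached 1 FPKM in any library. Only the 6 libraries compared entered a fit, and the 3 comparisons share libraries. Levels between genes and ratios were compared in FPKM. The 95% intervals of fold changes come from the same fit. Alternatives used DESeq2 1.42.0, limma 3.58.1 on log2 of FPKM plus 1 or 0.1, other scalings and filters, all 9 libraries in 1 fit, a replicate block, and each library left out. On simulated counts for SNI against sham, edgeR recovered 188 of 200 genes changed by 1 on the log2 scale among 14305, with 13 false calls. For SNI_G15 against SNI it recovered 188 of 200, with 6 false calls. Only genes above a minimum mean of reads were changed, with the spread taken from the trend over all genes. The change was larger than those of Tnfrsf12a and Il18bp between SNI_G15 and SNI. These counts are thus not a measure of the power for the members. For transcript usage, 18062 transcripts were tested on simulated counts there, with 1 transcript raised by 1.58 on the log2 scale in each of 100 genes. The test recovered 100 of these 100 genes and falsely called 15 others. Only genes with well-read transcripts were changed, and 1 fixed spread was used for all transcripts. The result is thus not a measure of the power for Il18bp in these libraries.

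The members and gene lists were chosen with earlier results of these data known. Named were all members, up to 4 called genes with no overlap per list and comparison by size of the fold change, and the 3 genes most like each member. Adjusted p-values cover all genes tested.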

Additional observations from a re-analysis of the deposited data

How the results depend on the processing

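Over 15 alternatives per comparison, all 8 members stayed called in SNI against sham and the same 7 in SNI + G15 against sham. In SNI + G15 against SNI, Tnfrsf12a stayed called in all 15 and Il18bp in 11. The number of members called there ranged from 1 to 2 with a library left out. The number of all genes called there was 2179, fell to 1292 with the replicate block and ranged from 893 to 2333 with a library left out. The replicate block changed no call of a member in any comparison. Of 9 same-numbered pairs of libraries, 0 had a correlation of deviations above 0.1 (range -0.131 to 0.0285). Pairs of unlike number were not set beside these, so whether replicate numbers mark pairs is not settled. Of 1154 alternative values for other named genes, 62 lost the call and 0 changed sign.

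Members that were not called changed sign around 0. On log2 of FPKM plus 1 and plus 0.1, the difference of Il1rn between SNI + G15 and SNI was -0.0012 and -0.00073, and that of Il1r1 -0.0025 and -0.0028. With a library left out, Il1rn ranged from -0.066 to 0.081 and Il1r1 from -0.0040 to 0.036 in this comparison, Tnf from -0.24 to 0.079 in SNI against sham, and Il18bp from -0.059 to 0.13 in SNI + G15 against sham. The log2 ratio of Il1rn to Il1b ranged from -0.21 to 0.013 between SNI + G15 and SNI, from 0.65 to 1.45 between SNI and sham, and from 0.56 to 1.36 between SNI + G15 and sham. The log2 ratio of Il18bp to Il18 was -0.87 on counts against -0.54 on FPKM in SNI against sham, and -0.23 against -0.58 in SNI + G15 against SNI. The 2 Il18bp transcripts held unlike reads per FPKM. In sham replicate 1, NM_053374.2 had 64.6 reads at 3.82 FPKM and XM_008759805.2 had 164 reads at 2.77 FPKM. The part of this in the difference between the scales was not tested.

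Low reads limit Il1a and Tnf, of which no library held more than 22 reads. With 3 libraries per group the exact permutation test cannot reach a p below 0.1.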
